A study of Homo sapiens with 12 samples.

Results

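Long intergenic noncoding RNA genes that carry a name of the LINC series were followed in MBD2 knockout and control HUDEP-2 cells at an early and a late basophilic erythroblast stage. The genes were taken as those whose GENCODE 29 symbol starts with LINC and digits, that lie on none of chromosomes 18, X and Y, and that had at least 60 counts summed over the 12 libraries. Of 60483 genes in the count table, 1862 had such a symbol and 1765 of those lay on the chromosomes kept. Among these, 539 had 0 counts in every library, 1077 had 1 to 59 counts and 149 reached 60 counts. The 149 LINC genes were among 18897 genes of all kinds at or over 60 counts, and all 149 were tested. At the edge of this choice, LINC01481 (ENSG00000257613.1) had 60 counts and LINC02572 had 61, whereas LINC00511 and LINC02354 had 59 each and were left out.

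A LINC symbol is a placeholder given to a long RNA with no sizeable reading frame, usually one that lies between protein-coding genes, until something is known of its function. Long noncoding RNAs are transcribed by RNA polymerase II, are often spliced and polyadenylated, and tend to be less abundant and more restricted to a cell type than messenger RNAs. Some act on the gene next to them, some act elsewhere as scaffolds or decoys, and for many the RNA has no known role. MBD2 is a protein that binds methylated CG dinucleotides and brings the NuRD complex, which deacetylates histones and moves nucleosomes, to methylated DNA. In erythroid cells MBD2 is known as a silencer of the fetal globin genes.

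HUDEP-2 is a human erythroid progenitor line immortalised with doxycycline-inducible viral oncogenes, and doxycycline (DOX) was present in all 4 groups. Each group had 3 libraries. The knockout cells after differentiation (MBD2KO, genotype MBD2-/-, late basophilic erythroblast) and the control cells after differentiation (sgSCR, a scrambled guide RNA, genotype WT, same stage) were cultured in IMDM with human AB serum, EPO, DOX, insulin, heparin and holo-transferrin. The knockout cells before differentiation (MBD2KO, MBD2-/-, early basophilic erythroblast) and the control cells before differentiation (sgSCR, WT, same stage) were cultured in SFEM with SCF, EPO, DEX and DOX. The labels give 3 days of differentiation in the RNA extraction text and 5 days in the culture text. Stage and medium changed together and cannot be told apart. The labels do not say whether the MBD2KO cells are 1 clone or whether replicates are separate cultures, so p-values measure the spread between these libraries. With 3 libraries against 3, an exact two-sided permutation test cannot go below p = 0.1, so single genes were called by edgeR's quasi-likelihood test over all 18897 genes at a Benjamini-Hochberg adjusted p under 0.05.

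Libraries held 7667997 to 14047498 counts in genes. MBD2 averaged 15.8 ± 1.13 CPM (counts scaled to library size) in knockout cells after differentiation and 59.4 ± 1.62 CPM in control cells after differentiation (SD, n = 3 each). Before differentiation it averaged 22.4 ± 2.33 CPM in knockout cells and 77.3 ± 1.88 CPM in control cells (SD, n = 3 each). All 16 erythroid marker genes were tested, with summed levels of 20680 to 32950 CPM in knockout cells after, 10020 to 12840 CPM in control cells after, 9767 to 15660 CPM in knockout cells before and 9116 to 14340 CPM in control cells before, while none of 10 lymphoid and none of 10 stromal and endothelial markers reached 60 counts. The erythroid sum includes the globin genes HBB, HBA1 and HBA2, although the libraries were globin depleted. It spread widely within groups, and the part of globin reads in it was not tested. Summed mast cell and basophil markers, with 7 of 10 genes tested, lay at 387 to 411 CPM in knockout cells after, 680.2 to 695 CPM in control cells after, 752 to 774 CPM in knockout cells before and 957 to 1008 CPM in control cells before. Summed neutrophil and monocyte markers, with 6 of 12 genes tested, lay at 5.38 to 8.55, 4.52 to 5.43, 32.8 to 41.6 and 14.4 to 16.4 CPM in the same 4 groups. Summed megakaryocyte markers, with 4 of 12 genes tested and PPBP at 0 in every library, lay at 55.9 to 56.8, 22.5 to 24.7, 43.9 to 64.7 and 28.4 to 31.5 CPM. These marker levels moved with genotype and stage, and their part in the results was not tested. In such bulk libraries fewer cells of a type and less RNA per cell cannot be told apart.

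The LINC genes were mostly, not all, intergenic. GENCODE 29 types 112 of the 149 as lincRNA, 14 as antisense, 8 as processed transcripts, 12 as transcribed pseudogenes, and the remaining 3 as bidirectional promoter or sense overlapping RNAs. The body of a protein-coding gene was overlapped by 22, and 58 lay within 5 kb of one or overlapped it. Exon bases were shared with another gene in 52 of the 149, and over 50% of the exon bases were shared in 3. The counts were made without using strand, so reads of a LINC gene and of a gene overlapping it on either strand cannot be told apart. Median exon length was 2131 bases in the LINC genes and 4987.5 bases in the 12054 protein-coding genes tested, and 18 LINC genes had a single merged exon.

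Levels were low and uneven. The 149 LINC genes held 77705 counts in all, of which the 4 most counted took 25.1% and the 12 most counted 45.9%. Their share of all counts averaged 0.0629% ± 0.0015 in knockout cells after, 0.0624% ± 0.00187 in control cells after, 0.0568% ± 0.00186 in knockout cells before and 0.0571% ± 0.000783 in control cells before (SD, n = 3 each). The share overlapped between knockout and control cells at each stage, and every library after differentiation was above every library before it. Median total count was 205 for a LINC gene and 3198 for a protein-coding gene tested. Per kilobase of exon, the median level was 0.942 CPM for LINC genes, from 0.0744 to 30.4 CPM, and 4.86 CPM for protein-coding genes. Only 11 of the 149 LINC genes reached the protein-coding median.

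The most abundant LINC gene per kilobase was LINC02506, at 30.4 CPM per kilobase over the 12 libraries, a short lincRNA of 734 exon bases (chr4:31997397-32155406, plus strand, GRCh38). LINC01578 followed at 11.7 CPM per kilobase. It is now named CHASERR and is known for restraining the chromatin remodeller gene CHD2 beside it in cis. LINC01215 had 10.9, LINC01388 8.37, LINC01366 8.08 and LINC02573 7.03 CPM per kilobase. LINC01023, LINC00342, LINC00680 and LINC02001 lay close together between 6.25 and 6.63 CPM per kilobase. LINC02001 is now named SNHG30, as a host gene of small nucleolar RNA. LINC01952 had 5.12 and LINC01670 had 4.46 CPM per kilobase. Of these 12, LINC00342, LINC00680 and LINC02001 were called in no comparison of genotype or stage. LINC00680, for example, averaged 19.3 ± 2.33 CPM in knockout cells after, 18 ± 1.12 CPM in control cells after, 20.6 ± 1.3 CPM in knockout cells before and 17.7 ± 1.42 CPM in control cells before (SD, n = 3 each).

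**Figure D1:**
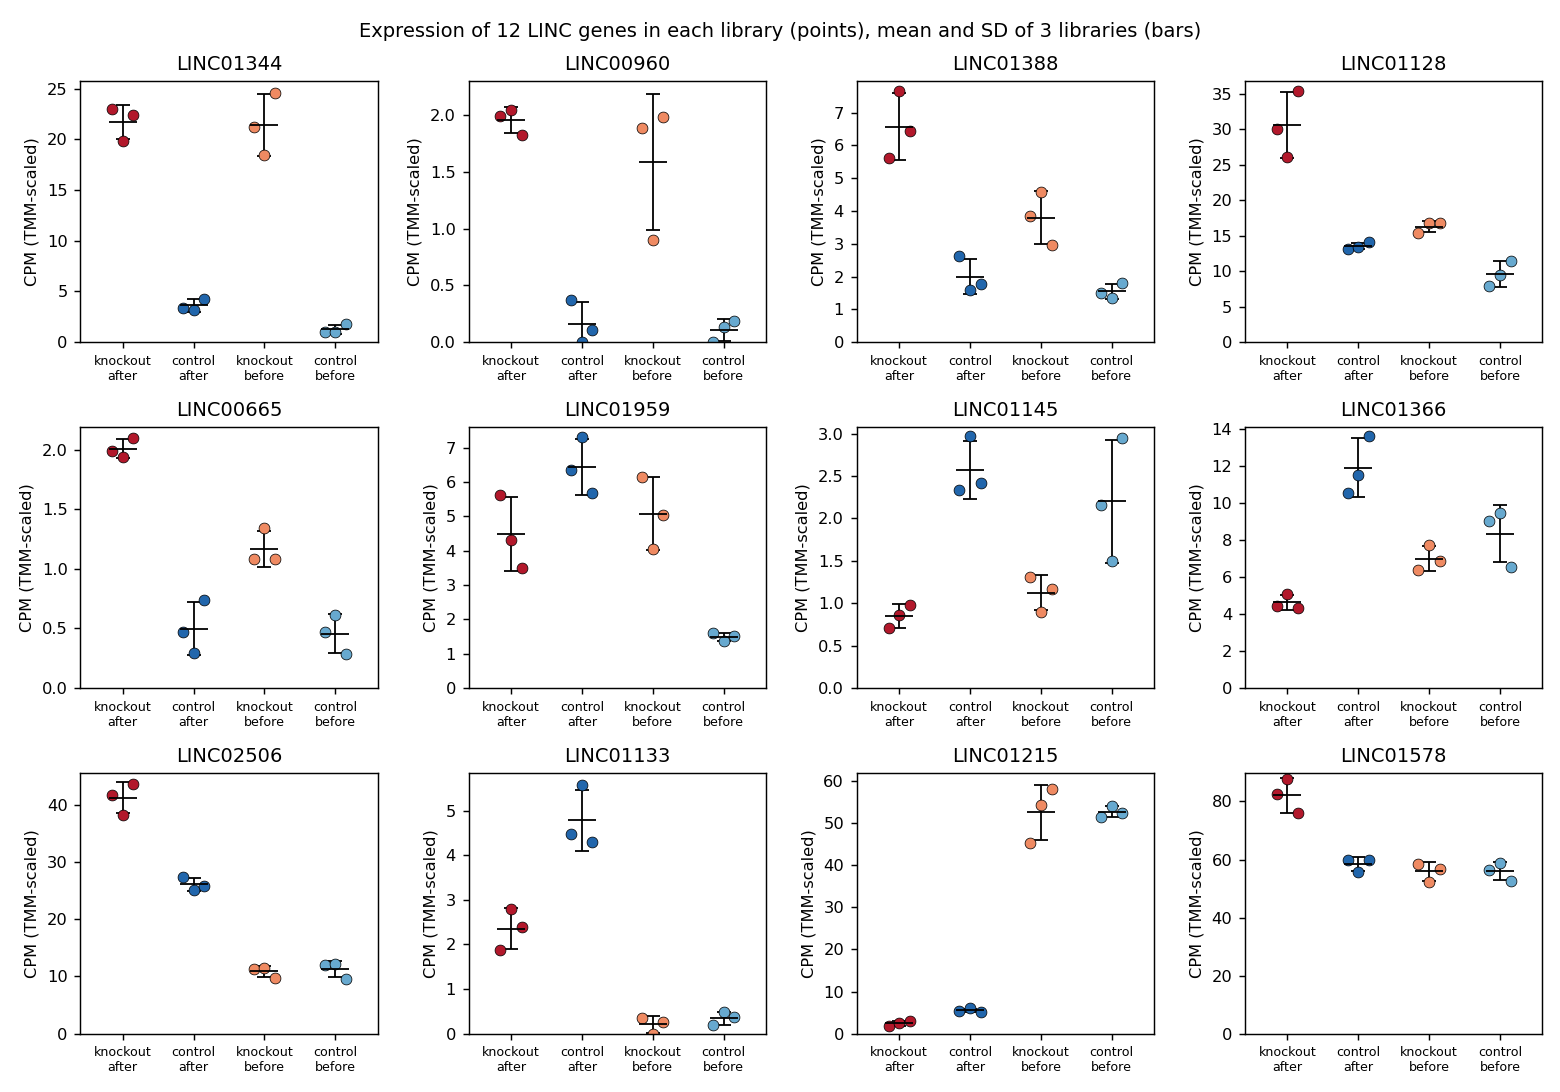
Level of 12 LINC genes in each of the 12 libraries (points, CPM after TMM scaling, linear axes from 0), with the mean and SD of the 3 libraries of each group (bars). LINC01344, LINC00960, LINC01388, LINC01128 and LINC00665 sit higher in knockout than in control cells at both stages, LINC01145 sits lower, and LINC01215 sits far lower after differentiation in both genotypes.

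The promoters of 4 LINC genes called in a knockout comparison are shown because MBD2 binds methylated CG dinucleotides, so how many CG a promoter holds is a property the choice of genes did not use. Each is the RefSeq GRCh38.p14 sequence from 250 bases before to 50 bases after the start, 5′ to 3′ on the gene's strand, with CG dinucleotides, and the motif AGATAA read on either strand, in capitals. LINC01344 (chr1:182314012-182314311 on the minus strand) and LINC01388 (chr9:113746-114045 on the minus strand) were higher in knockout cells at both stages. LINC01959 (chr5:135653886-135654185 on the minus strand) was higher in knockout cells before differentiation. LINC01145 (chr1:145216003-145216302 on the minus strand) was lower in knockout cells at both stages.
LINC01344: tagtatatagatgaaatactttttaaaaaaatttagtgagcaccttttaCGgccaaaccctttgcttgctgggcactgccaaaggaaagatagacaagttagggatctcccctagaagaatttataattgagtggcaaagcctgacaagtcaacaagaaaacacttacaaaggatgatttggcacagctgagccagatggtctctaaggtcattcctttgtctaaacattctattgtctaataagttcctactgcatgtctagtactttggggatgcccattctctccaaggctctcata
LINC01388: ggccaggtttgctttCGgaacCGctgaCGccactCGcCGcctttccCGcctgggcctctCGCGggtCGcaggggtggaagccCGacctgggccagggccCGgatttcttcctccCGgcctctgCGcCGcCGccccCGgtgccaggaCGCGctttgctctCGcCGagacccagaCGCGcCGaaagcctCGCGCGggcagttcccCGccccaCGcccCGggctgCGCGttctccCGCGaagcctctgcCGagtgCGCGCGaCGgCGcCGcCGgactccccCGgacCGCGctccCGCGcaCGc
LINC01959: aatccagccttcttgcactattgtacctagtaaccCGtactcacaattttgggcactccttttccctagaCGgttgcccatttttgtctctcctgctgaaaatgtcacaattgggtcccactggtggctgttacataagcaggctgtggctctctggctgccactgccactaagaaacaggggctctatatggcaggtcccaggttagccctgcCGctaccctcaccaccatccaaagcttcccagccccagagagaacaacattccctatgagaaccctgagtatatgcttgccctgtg
LINC01145: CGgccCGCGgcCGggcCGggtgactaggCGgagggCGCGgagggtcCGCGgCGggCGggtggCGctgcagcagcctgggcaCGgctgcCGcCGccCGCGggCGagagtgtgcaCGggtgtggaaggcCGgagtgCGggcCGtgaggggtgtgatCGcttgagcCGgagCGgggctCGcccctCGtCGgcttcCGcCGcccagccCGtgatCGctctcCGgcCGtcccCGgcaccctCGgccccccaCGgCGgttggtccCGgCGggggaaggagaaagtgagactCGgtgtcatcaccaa
The 4 windows hold 1, 47, 3 and 42 CG in the order printed, so CG-rich and CG-poor promoters both occur among genes higher in knockout cells. Only 88 of the 149 LINC genes matched a promoter in the table. For 81 of them its start lay within 1 kb of the gene's 5′ end in the counts, on the same strand. For LINC00963, called higher in knockout cells, it lay 5209 bases away. Among the 88 matched genes the median was 21.5 CG in 300 bases, and 69.3% held at least 10 CG. Over 35116 promoters of the same length the median was 14 CG and the share 56.4%. Those 35116 were not filtered by counts, unlike the 88, so the sets are not alike. The 9 matched genes called higher in knockout cells at either stage had a median of 33 CG, from 1 to 47. Of these 9, 7 (77.8%) held at least 10 CG, all but the printed LINC01344 and LINC01959. That share was 63.6% among the genes called lower and 69.1% among those called at neither stage. The 11 called lower had a median of 16 CG, from 1 to 42. The 68 called at neither stage had a median of 21.5 CG, from 0 to 44, so the ranges overlapped widely. These are descriptions of sequence and say nothing of methylation, which was not measured.

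After differentiation, the knockout comparison asked which LINC genes differ in the later erythroblasts when MBD2 is disrupted. Of 149 LINC genes, 18 were higher and 14 lower in knockout than in control cells, 21.5% of the LINC genes, whereas 30% of all genes tested were called, 15.5% higher and 14.5% lower. Power grows with counts, and among genes with under 1000 counts 16.4% were called. The median log2 fold change was -0.06 for LINC genes and -0.0039 for all genes. Before differentiation, 11 LINC genes were higher and 5 lower in knockout cells, 10.7% of them, against 15.5% of all genes tested (8.06% higher and 7.39% lower) and 9.73% of those with under 1000 counts. The median there was -0.11 for LINC genes and -0.01 for all genes. Of the 128 LINC genes with under 1000 counts, 19.5% were called after differentiation and 9.38% before it, beside the 16.4% and 9.73% of all genes with under 1000 counts. The share of LINC genes called was thus below that of all genes, and near that of genes with as few counts before differentiation.

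**Figure D2:**
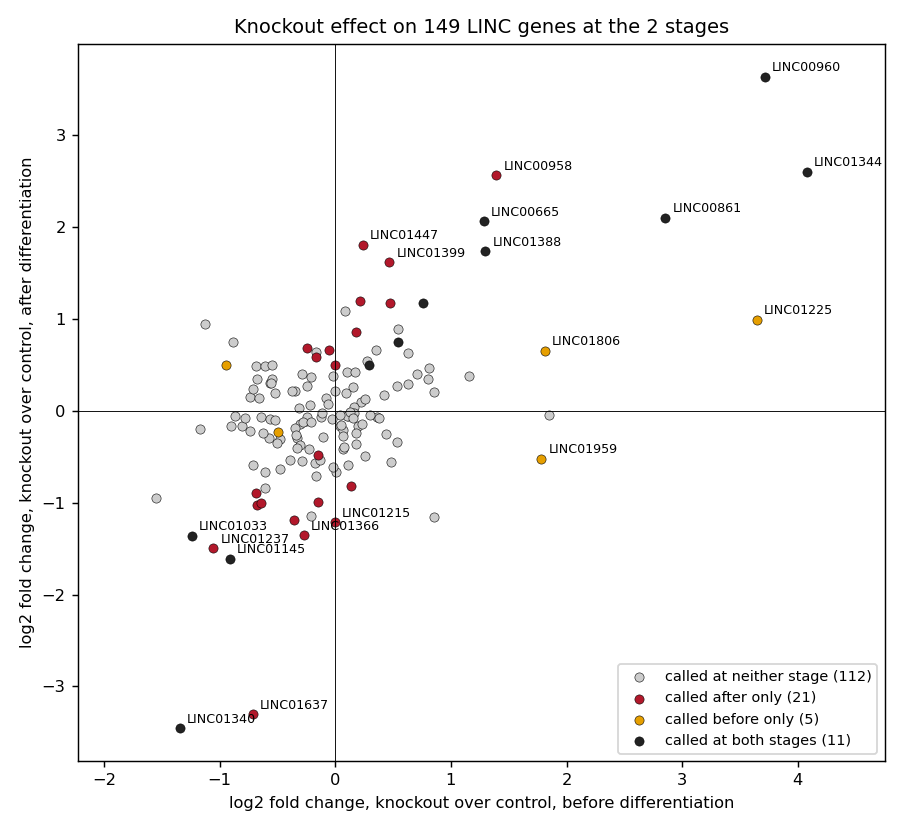
Log2 fold change of knockout over control for each of the 149 LINC genes, after differentiation (y axis) and before it (x axis), coloured by where the gene was called. The 11 genes called at both stages lie in the upper right (8) or the lower left (3), and no gene called at both stages changed direction.

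The comparisons at the 2 stages share no library. Of the 11 LINC genes higher in knockout cells before differentiation, 8 were also higher after it, which is 72.7% of 11 and 44.4% of 18. Of the 5 lower before, 3 were lower after, which is 60% of 5 and 21.4% of 14. Over all genes, 902 were higher at both stages, 59.2% of those before and 30.9% of those after, and 868 were lower at both, 62.1% and 31.6%. Opposite calls were 0 among LINC genes, and among all genes 53 were higher before and lower after and 47 the reverse, so all genes also mostly kept their direction.

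Among genes higher in knockout cells, LINC01344 stood out in level. This lincRNA of 3161 exon bases (chr1:182129310-182314061, minus strand) had 23, 19.8 and 22.4 CPM in knockout cells after differentiation, against 3.36, 3.18 and 4.3 CPM in control cells after. It had 21.2, 18.5 and 24.6 CPM in knockout cells before, against 1.03, 1.02 and 1.81 CPM in control cells before. Knockout libraries were far above control libraries at both stages, with no overlap. The log2 fold change was 2.60 ± 0.17 (SE; adjusted p = 2.04e-09) after differentiation and 4.08 ± 0.20 (SE; adjusted p = 1.17e-10) before it. In knockout cells the level was alike at both stages, while in control cells it was higher after differentiation than before.

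LINC00960 was near the detection limit in control cells. It had 1.99, 2.05 and 1.82 CPM in knockout cells after, against 0.373, 0 and 0.105 CPM in control cells after, that is 49 against 5 counts over 3 libraries each. Before differentiation it had 1.88, 0.897 and 1.98 CPM in knockout cells, against 0, 0.136 and 0.19 CPM in control cells, or 58 against 4 counts. Every knockout library was above every control library. The log2 fold changes were 3.63 ± 0.60 (SE; adjusted p = 1.32e-04) after and 3.72 ± 0.62 (SE; adjusted p = 3.17e-04) before differentiation. LINC00861 had 1.99, 2.05 and 1.26 CPM in knockout cells after, against 0.28, 0.507 and 0.42 CPM in control cells after, and log2 fold changes of 2.10 ± 0.51 (SE; adjusted p = 0.00419) after and 2.86 ± 0.47 (SE; adjusted p = 2.94e-04) before differentiation.

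LINC01388 (chr9:112713-113754, minus strand) had 5.63, 7.65 and 6.45 CPM in knockout cells after, against 2.61, 1.59 and 1.78 CPM in control cells after. Before differentiation the values were 3.84, 4.57 and 2.97 CPM in knockout cells, against 1.5, 1.36 and 1.81 CPM in control cells. The groups did not overlap at either stage, with log2 fold changes of 1.73 ± 0.23 (SE; adjusted p = 1.52e-05) after and 1.30 ± 0.25 (SE; adjusted p = 0.00125) before. LINC01128, better counted than most, had 30.1, 26.2 and 35.5 CPM in knockout cells after, against 13.2, 13.5 and 14.1 CPM in control cells after, and 15.4, 16.8 and 16.7 CPM in knockout cells before, against 7.89, 9.45 and 11.5 CPM in control cells before. Its fold changes, 1.17 ± 0.13 (SE; adjusted p = 1.65e-06) and 0.76 ± 0.14 (SE; adjusted p = 7.17e-04) on the log2 scale for after and before, were smaller than those of LINC01388 but rested on 2143 counts.

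LINC00665, reported to encode a micropeptide, had 1.99, 1.94 and 2.1 CPM in knockout cells after, against 0.467, 0.289 and 0.735 CPM in control cells after, a log2 fold change of 2.06 ± 0.35 (SE; adjusted p = 1.92e-04). Before differentiation it had 1.09, 1.35 and 1.08 CPM in knockout cells, against 0.47, 0.612 and 0.285 CPM in control cells. That call, 1.29 ± 0.36 (SE; adjusted p = 0.0209), was lost with DESeq2 and without knockout library 2, control library 1 or control library 3, with an adjusted p of up to 0.0873 over all alternatives tried, as for each such highest adjusted p given here. LINC00963 was higher in knockout cells by 0.50 after and 0.29 before differentiation on the log2 scale (adjusted p = 6.27e-05 and 0.023), the smallest of the changes called at both stages. LINC02210, a transcribed unitary pseudogene that shares exon bases with its readthrough with CRHR1, was higher by 0.75 after and 0.54 before. The call before differentiation was lost without knockout library 1 or 3 or control library 1 or 2, with DESeq2, without TMM scaling, with no filter beyond 1 count and in a fit of the 2 groups alone, with an adjusted p of up to 0.161.

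Some genes were called higher in knockout cells after differentiation and not before. LINC00958 had 3.63, 4.74 and 4.2 CPM in knockout cells after, against 0.56, 0.868 and 0.63 CPM in control cells after, a log2 fold change of 2.56 ± 0.33 (SE; adjusted p = 9.04e-06). It was scarce before differentiation, at 0.725, 0.179 and 0.18 CPM in knockout cells and 0.188, 0.068 and 0.19 CPM in control cells. LINC00921 had 3.87, 3.34 and 4.06 CPM in knockout cells after, against 1.77, 1.88 and 2.62 CPM in control cells after. Its log2 fold change of 0.85 ± 0.25 (SE; adjusted p = 0.0139) was not called without control library 1 or 2, with an adjusted p of up to 0.0599. LINC00921 shares 3.40% of its exon bases with ZNF263.

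Among genes lower in knockout cells, LINC01145 was called at both stages. It had 0.704, 0.861 and 0.981 CPM in knockout cells after, against 2.33, 2.97 and 2.41 CPM in control cells after, a log2 fold change of -1.61 ± 0.33 (SE; adjusted p = 9.45e-04). Before differentiation it had 1.3, 0.897 and 1.17 CPM in knockout cells, against 2.16, 1.5 and 2.95 CPM in control cells. The groups did not overlap, but the call before differentiation, -0.91 ± 0.29 (SE; adjusted p = 0.0396), was lost in 10 alternatives, among them leaving out any of the 3 knockout libraries before differentiation, or control library 1 or 3 before differentiation. It was also lost without knockout library 1 or 2 after differentiation, which enter the shared spread, with DESeq2, with no filter beyond 1 count and in a fit of the 2 groups alone. LINC01145 is a transcribed unprocessed pseudogene, so reads could be split with a near-identical copy.

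LINC01033 had 0.704, 0.323 and 0.28 CPM in knockout cells after, against 0.934, 1.09 and 1.47 CPM in control cells after, a log2 fold change of -1.36 ± 0.44 (SE; adjusted p = 0.0259). Before differentiation it had 0.942, 0.718 and 0.36 CPM in knockout cells, against 1.78, 1.56 and 1.62 CPM in control cells, -1.24 ± 0.34 (SE; adjusted p = 0.0169). Leaving out knockout library 2 or 3 or control library 3 ended the call after differentiation, and leaving out knockout library 3 or control library 1 ended the one before it. DESeq2 ended both, and over all alternatives the adjusted p came to up to 0.108 and 0.0739. LINC01340 had 1 count over the 3 knockout libraries after differentiation, against 19 counts over the 3 control libraries after. The ratio of these counts at equal depth was 0.0718, with a 95% exact interval of 0.00173 to 0.452 that covers counting error only. Before differentiation it had 0.725, 0.448 and 1.17 CPM in knockout cells, against 2.82, 1.63 and 1.62 CPM in control cells, with no overlap and a log2 fold change of -1.35 ± 0.40 (SE; adjusted p = 0.029). Its call was lost without knockout library 1 or 2 or control library 2 after, and, in the comparison before differentiation, without knockout library 1 or 2 or control library 1 before and with DESeq2 (adjusted p up to 0.109 and 0.151).

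LINC01366 (chr5:170331429-170333879, plus strand) had 4.46, 5.06 and 4.34 CPM in knockout cells after, against 10.6, 11.5 and 13.6 CPM in control cells after, a log2 fold change of -1.35 ± 0.17 (SE; adjusted p = 8.71e-06). LINC01215, LINC02573 and LINC01133 were also lower in knockout cells after differentiation, with log2 fold changes of -1.21 ± 0.20 (SE; adjusted p = 1.25e-04), -1.19 ± 0.27 (SE; adjusted p = 0.00239) and -1.03 ± 0.27 (SE; adjusted p = 0.00768). For these 4 genes no knockout library after differentiation reached a control library after. Before differentiation none of the 4 was called, with log2 fold changes of -0.27, -0.01, -0.35 and -0.68 in the order LINC01366, LINC01215, LINC02573 and LINC01133. LINC00265 had a log2 fold change of -1.01 ± 0.27 (SE; adjusted p = 0.0089) after, a call lost without knockout library 1 or control library 1, with an adjusted p of up to 0.0576.

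Before differentiation, LINC01959 had 6.16, 4.04 and 5.04 CPM in knockout cells, against 1.6, 1.36 and 1.52 CPM in control cells, a log2 fold change of 1.78 ± 0.24 (SE; adjusted p = 3.06e-05). LINC00339, which lies near CDC42, had 3.7, 2.06 and 2.07 CPM in knockout cells and 5.54, 4.42 and 5.61 CPM in control cells, -0.95 ± 0.22 (SE; adjusted p = 0.00687). LINC00847 was lower in knockout cells, with a log2 fold change of -0.50 ± 0.13 (SE; adjusted p = 0.0115), a call lost without control library 2, with an adjusted p of up to 0.0618. LINC00847 shares 21.0% of its exon bases with the noncoding RNA gene HEIH. The 5 LINC genes called lower before differentiation became 2 without control library 1 and 3 without knockout library 3. The 14 called lower after it became 7 without knockout library 2.

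With differentiation, more LINC genes rose than fell in either genotype. In knockout cells 51 of 149 were higher and 14 lower after than before differentiation, 43.6% of them, against 51.6% of all genes tested and 36.1% of those with under 1000 counts. Higher calls came to 34.2% of LINC genes and 26.2% of all genes, and lower calls to 9.40% of LINC genes and 25.4% of all genes. In control cells 40 were higher and 12 lower, 34.9% of them, against 40.2% of all genes tested and 24.8% of those with under 1000 counts. Here higher calls came to 26.8% of LINC genes and 19.5% of all genes, and lower calls to 8.05% and 20.7%. The median log2 fold change of the LINC genes was 0.47 in knockout cells and 0.34 in control cells, against 0.04 and 0.01 for all genes. Genes with under 1000 counts also leaned upward, with 22.4% higher, 13.6% lower and a median of 0.19 in knockout cells, and 14.8% higher, 10% lower and a median of 0.10 in control cells. The 128 LINC genes with under 1000 counts had 32.8% higher, 8.59% lower and a median of 0.49 in knockout cells, and 23.4% higher, 7.03% lower and a median of 0.32 in control cells. The 112 genes typed lincRNA had medians of 0.45 in knockout and 0.34 in control cells, and the 37 of other types 0.50 and 0.27.

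**Figure D3:**
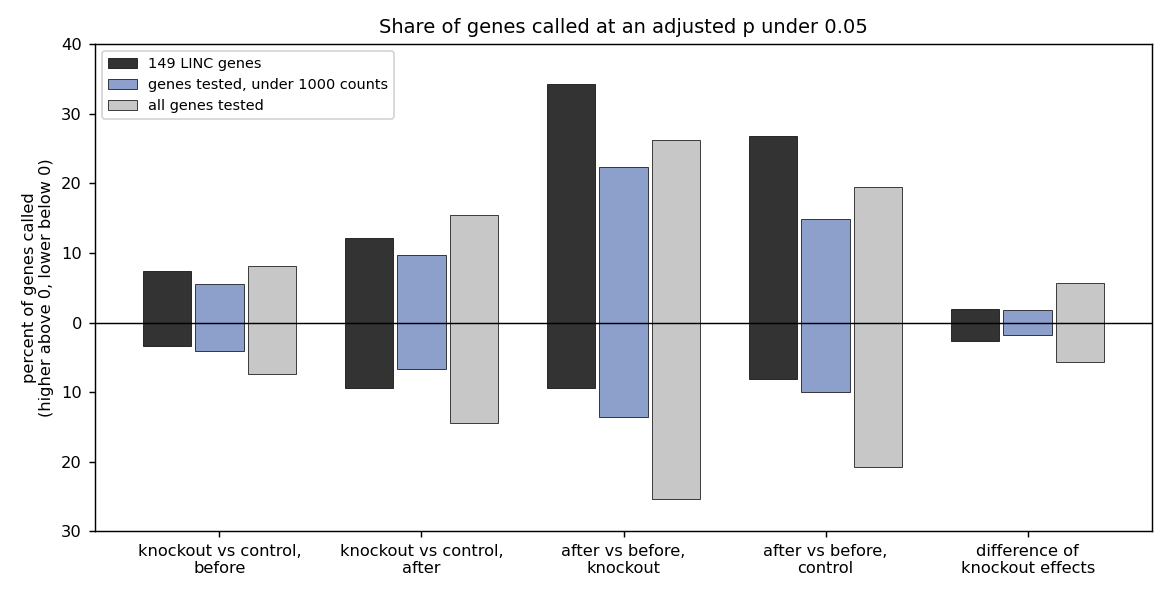
Percent of genes called higher (bars above 0) and lower (bars below 0) at an adjusted p under 0.05 in each comparison, for the 149 LINC genes, for all genes with under 1000 counts and for all genes tested. In both comparisons of stage the LINC genes have more higher calls and fewer lower calls than all genes, at 34.2% and 9.40% in knockout cells and 26.8% and 8.05% in control cells.

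The comparisons of stage share no library between genotypes, and 27 LINC genes were higher after differentiation in both, which is 52.9% of the 51 and 67.5% of the 40. Another 9 were lower in both, 64.3% of the 14 and 75% of the 12. Over all genes 2873 were higher in both, 58% of those in knockout cells and 78% of those in control cells, and 3131 were lower in both, 65.3% and 80.1%. In knockout cells 84 LINC genes were not called for stage and in control cells 97 were not.

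**Figure D4:**
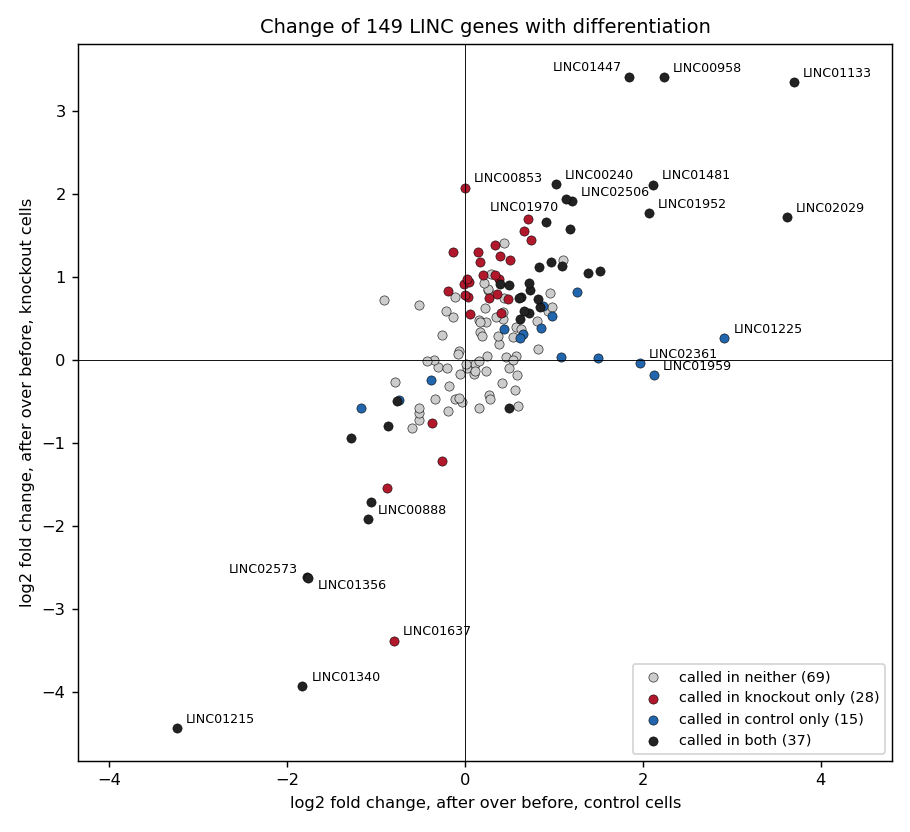
Log2 fold change of after over before differentiation for each of the 149 LINC genes in knockout cells (y axis) and in control cells (x axis), coloured by where the gene was called. Most called genes lie in the upper right, LINC01215 is the farthest at the lower left, and LINC01959 and LINC01344 rose in control cells with little change in knockout cells.

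The promoters of LINC01133 and LINC01215 are printed because they are the gene with the largest rise in control cells and the gene with the largest fall in both genotypes. AGATAA is the motif bound by the erythroid factor GATA1, and CACCC is the core of sites bound by the erythroid factor KLF1. The windows are RefSeq GRCh38.p14 sequences of 300 bases as above, at chr1:159960974-159961273 on the plus strand for LINC01133 and at chr3:108125571-108125870 on the plus strand for LINC01215, with CG and AGATAA on either strand in capitals.
LINC01133: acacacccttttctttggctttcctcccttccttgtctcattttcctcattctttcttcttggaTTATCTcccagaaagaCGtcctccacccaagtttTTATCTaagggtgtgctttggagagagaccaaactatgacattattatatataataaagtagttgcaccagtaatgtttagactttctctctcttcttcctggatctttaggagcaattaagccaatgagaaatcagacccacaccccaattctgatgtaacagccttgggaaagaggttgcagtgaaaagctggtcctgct
LINC01215: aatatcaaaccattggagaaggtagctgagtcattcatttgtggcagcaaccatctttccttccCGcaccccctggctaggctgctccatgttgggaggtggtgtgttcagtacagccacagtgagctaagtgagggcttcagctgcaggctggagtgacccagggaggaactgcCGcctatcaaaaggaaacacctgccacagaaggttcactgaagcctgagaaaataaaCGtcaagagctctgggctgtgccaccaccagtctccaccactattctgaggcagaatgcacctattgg
On either strand, the LINC01133 window holds 2 AGATAA and 4 CACCC, and that of LINC01215 holds 0 AGATAA and 1 CACCC. The motif AGATAA occurred in 4 of the 17 matched LINC genes that were higher in both genotypes, in 7.95% of the 88 matched LINC genes and in 10.3% of all 35116 promoters. CACCC occurred in 64.8% of the 88 and 59.9% of all promoters. Both motifs were searched on both strands, and their letters cannot overlap each other. A match describes letters and is not evidence of binding.

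LINC01133 (chr1:159961218-159979061, plus strand) was nearly undetected before differentiation and rose in both genotypes. It had 1.88, 2.8 and 2.38 CPM in knockout cells after, against 0.362, 0 and 0.27 CPM in knockout cells before. It had 4.48, 5.57 and 4.3 CPM in control cells after, against 0.188, 0.476 and 0.38 CPM in control cells before. The stages did not overlap in either genotype, with log2 fold changes of 3.35 ± 0.47 (SE; adjusted p = 8.99e-06) in knockout cells and 3.70 ± 0.36 (SE; adjusted p = 2.47e-07) in control cells. LINC00958 rose likewise, by 3.41 ± 0.36 (SE; adjusted p = 3.92e-07) in knockout cells and 2.24 ± 0.61 (SE; adjusted p = 0.0068) in control cells.

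LINC02506, the most abundant LINC gene per kilobase, rose in both genotypes. It had 41.6, 38.2 and 43.6 CPM in knockout cells after, against 11.4, 11.5 and 9.73 CPM in knockout cells before. In control cells it had 27.4, 25.1 and 25.7 CPM after and 12, 12.1 and 9.6 CPM before. Every library after differentiation was above every library before it, with log2 fold changes of 1.92 ± 0.11 (SE; adjusted p = 1.20e-10) in knockout and 1.21 ± 0.11 (SE; adjusted p = 9.57e-08) in control cells. LINC01952, typed antisense, rose by 1.77 ± 0.33 (SE; adjusted p = 2.11e-04) in knockout and 2.07 ± 0.37 (SE; adjusted p = 1.90e-04) in control cells. LINC01970 rose by 1.94 ± 0.33 (SE; adjusted p = 7.69e-05) and 1.14 ± 0.29 (SE; adjusted p = 0.0042) in the same order, and LINC00240 by 2.12 ± 0.33 (SE; adjusted p = 3.79e-05) and 1.02 ± 0.31 (SE; adjusted p = 0.0142).

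LINC00471 rose by 1.66 ± 0.22 (SE; adjusted p = 4.31e-06) in knockout and 0.92 ± 0.22 (SE; adjusted p = 0.00247) in control cells. LINC02352 was called in knockout cells, at 1.69 ± 0.41 (SE; adjusted p = 0.00201), and its value in control cells was 0.71 ± 0.47 (SE; adjusted p = 0.251). LINC02340 rose in control cells by 1.39 ± 0.44 (SE; adjusted p = 0.0184), a call lost without control library 1 or 3 before differentiation, with an adjusted p of up to 0.0705. LINC00963, higher in knockout cells at both stages, was also higher after differentiation, at 48.8, 47.7 and 52.7 CPM in knockout cells after and 20.8, 23.6 and 21.7 CPM in knockout cells before. In control cells it had 34.9, 34.4 and 35.9 CPM after and 17.9, 17.9 and 18 CPM before. The stages did not overlap in either genotype, with log2 fold changes of 1.17 ± 0.08 (SE; adjusted p = 1.19e-09) in knockout and 0.97 ± 0.08 (SE; adjusted p = 4.18e-08) in control cells.

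Fewer LINC genes fell, and LINC01215 fell most. It had 1.76, 2.48 and 3.08 CPM in knockout cells after, against 45.4, 54.3 and 58.1 CPM in knockout cells before. It had 5.42, 6.01 and 5.25 CPM in control cells after, against 51.6, 54 and 52.5 CPM in control cells before. Before differentiation the genotypes overlapped, and after it both were low, knockout cells the lower. The log2 fold changes were -4.44 ± 0.15 (SE; adjusted p = 2.28e-13) in knockout and -3.23 ± 0.12 (SE; adjusted p = 1.64e-12) in control cells. LINC02573 had 1.29, 1.62 and 1.26 CPM in knockout cells after and 8.62, 8.52 and 8.73 CPM in knockout cells before, against 3.55, 2.32 and 3.99 CPM in control cells after and 11.6, 12.2 and 9.22 CPM in control cells before. It fell in both genotypes, with log2 fold changes of -2.61 ± 0.23 (SE; adjusted p = 3.73e-08) in knockout and -1.78 ± 0.18 (SE; adjusted p = 4.08e-07) in control cells.

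LINC00888, a transcribed pseudogene, fell with log2 fold changes of -1.92 ± 0.23 (SE; adjusted p = 1.33e-06) in knockout and -1.08 ± 0.18 (SE; adjusted p = 1.32e-04) in control cells. LINC01340 had 1 count over the 3 knockout libraries after, against 28 counts over the 3 knockout libraries before, a ratio of 0.0516 at equal depth (95% exact interval 0.00126 to 0.312). In control cells it fell by 1.83 on the log2 scale (adjusted p = 0.00261). LINC01963 fell in both genotypes, with log2 fold changes of -0.94 in knockout and -1.28 in control cells (adjusted p = 3.27e-04 and 8.95e-06). LINC01012 and LINC01786 were called lower in knockout cells, with log2 fold changes of -1.22 and -1.55, and not in control cells, with -0.26 and -0.88, and the interaction contrast called neither. LINC01088, typed antisense, was lower in control cells after differentiation, with a log2 fold change of -1.16, a call lost with DESeq2 and without control library 1 or 3 after or control library 2 before. LINC00674 had log2 fold changes of -0.79 in knockout and -0.87 in control cells. Its call in control cells was lost with DESeq2 and without control library 1 before, and its call in knockout cells was lost in 12 alternatives. Of these, 8 left out a library: 1 or 3 of knockout after, control after or control before, and 2 or 3 of knockout before. The others were DESeq2, no filter beyond 1 count, a fit of the 2 groups alone and a replicate block, with an adjusted p of up to 0.178.

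The interaction contrast tested whether the knockout difference changed between stages. Of 149 LINC genes, 3 had a higher and 4 a lower knockout difference after than before differentiation, 4.70% of them, against 11.4% of all genes tested (5.64% higher and 5.74% lower) and 3.59% of those with under 1000 counts. Of the 128 LINC genes with under 1000 counts, 1.56% were called. Without knockout library 1 before differentiation the 3 became 6. Among the 7 called genes LINC01959 changed most, with a log2 difference of -2.31 ± 0.31 (SE; adjusted p = 1.15e-04). In control cells it had 6.35, 7.31 and 5.67 CPM after and 1.6, 1.36 and 1.52 CPM before, while in knockout cells it had 5.63, 4.31 and 3.5 CPM after and 6.16, 4.04 and 5.04 CPM before. Only the control libraries before differentiation were low. LINC01344 had an interaction of -1.48 ± 0.29 (SE; adjusted p = 0.00245), and LINC01215 one of -1.20 ± 0.22 (SE; adjusted p = 0.00159).

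LINC01366 went opposite ways with stage. It was lower after differentiation in knockout cells, -0.58 ± 0.18 (SE; adjusted p = 0.0125), and higher in control cells, 0.50 ± 0.15 (SE; adjusted p = 0.0134). It had 4.46, 5.06 and 4.34 CPM in knockout cells after and 6.38, 7.71 and 6.84 CPM in knockout cells before, against 10.6, 11.5 and 13.6 CPM in control cells after and 9.01, 9.45 and 6.56 CPM in control cells before. LINC00339 had an interaction of 1.44 ± 0.31 (SE; adjusted p = 0.00498), with 6.45, 7.21 and 6.03 CPM in knockout cells after and 3.92, 4.63 and 5.56 CPM in control cells after. LINC02506 had an interaction of 0.71 ± 0.15 (SE; adjusted p = 0.00532), with a knockout log2 fold change of 0.66 ± 0.10 (SE; adjusted p = 5.60e-05) after differentiation and overlapping groups before it.

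LINC01578 (CHASERR, chr15:92882707-92899701, plus strand) had 82.7, 87.9 and 75.9 CPM in knockout cells after, against 59.9, 55.7 and 59.7 CPM in control cells after. Before differentiation it had 58.6, 52.3 and 56.7 CPM in knockout cells and 56.2, 58.9 and 52.7 CPM in control cells. Only knockout cells after differentiation stood above the others, with a knockout log2 fold change of 0.49 ± 0.07 (SE; adjusted p = 5.48e-05) after differentiation and an interaction of 0.50 ± 0.11 (SE; adjusted p = 0.00476). CHD2, looked up after these values were seen, averaged 428 ± 7.43 CPM in knockout cells after, 292 ± 6.56 CPM in control cells after, 187 ± 14 CPM in knockout cells before and 174 ± 9.45 CPM in control cells before (SD, n = 3 each). Its interaction was 0.45 ± 0.09 (SE; adjusted p = 0.0045), in the same direction as that of LINC01578. LINC01578 shares 4.17% of its exon bases with AC013394.1.

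The nearest protein-coding gene within 100 kb was set beside each LINC gene, for the 105 LINC genes whose neighbour was tested. For 23 others the neighbour was below 60 counts, and 21 had no protein-coding gene within 100 kb. In knockout against control cells after differentiation, of 11 LINC genes called higher 4 neighbours were higher and 1 lower, and of 8 called lower 1 neighbour was higher and 3 lower. Of the 86 not called, 11 neighbours were higher and 18 lower. Before differentiation, 3 of 7 LINC genes called higher had a higher neighbour and 0 a lower one, and of the 96 not called 6 neighbours were higher and 9 lower. With stage in control cells, 10 of 26 LINC genes called higher had a higher neighbour and 5 a lower one, and of the 71 not called 20 neighbours were higher and 17 lower. In knockout cells those numbers were 13 and 10 of 34 called higher, and 17 and 27 of 61 not called. Of 8 LINC genes called lower with stage in control cells, 3 neighbours were higher and 4 lower. Of 10 called lower in knockout cells, 2 neighbours were higher and 5 lower. Across these 105 genes in the same 12 libraries, the Spearman correlation of the log2 fold changes was 0.306 for knockout after, 0.125 for knockout before, 0.207 for stage in knockout cells and 0.193 for stage in control cells. A neighbour could overlap its LINC gene, share exon bases with it or serve more than 1 LINC gene, so the pairs are not independent.

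**Figure D5:**
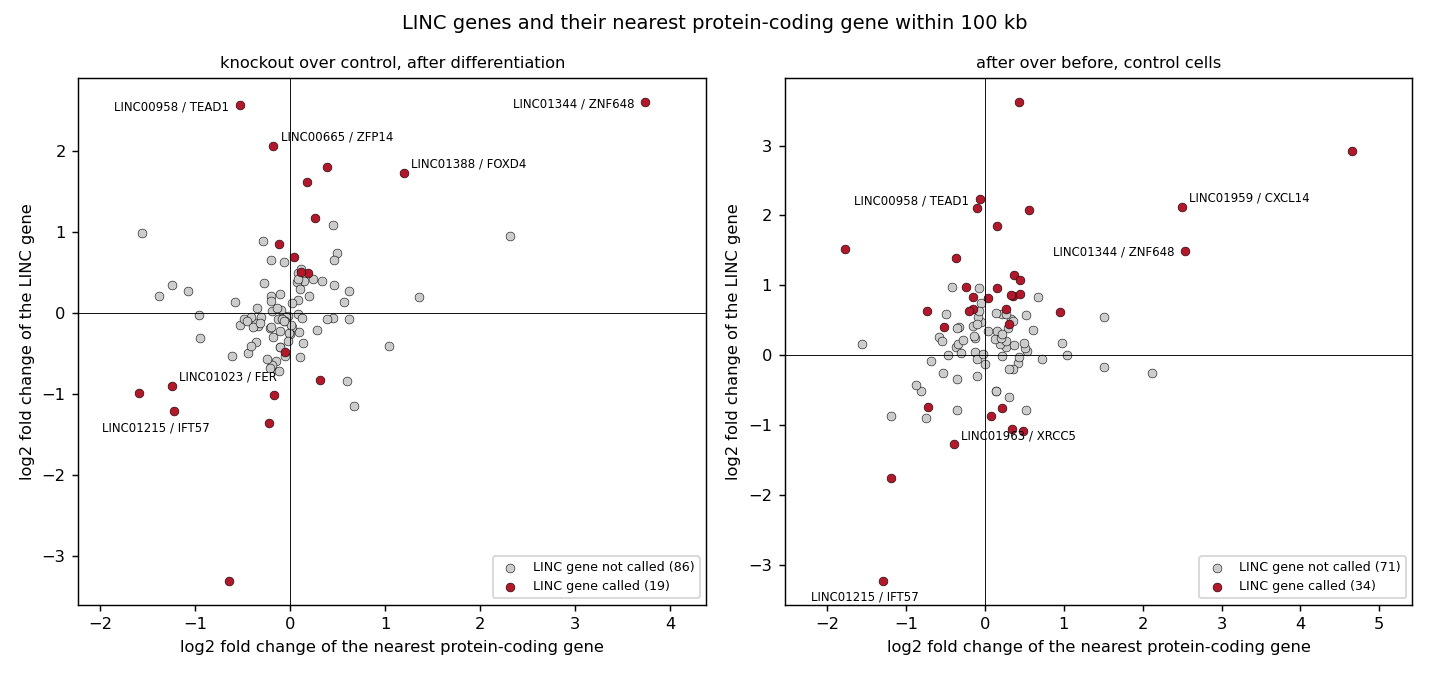
Log2 fold change of each of 105 LINC genes (y axis) and of its nearest tested protein-coding gene within 100 kb (x axis), for knockout over control after differentiation (left) and for after over before in control cells (right). LINC01344 and ZNF648 lie far up together in the left panel, whereas LINC00958 and TEAD1 lie in opposite directions.

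In the pairs of LINC01344 and LINC01959 both genes were called higher in knockout cells before differentiation. ZNF648, a zinc finger gene 67598 bases from LINC01344 on the same strand, averaged 9.55 ± 0.648 CPM in knockout cells after and 0.689 ± 0.357 CPM in control cells after (SD, n = 3 each). Before differentiation it averaged 13.3 ± 1.33 CPM in knockout cells and 0.117 ± 0.0628 CPM in control cells (SD, n = 3 each). The log2 fold changes of ZNF648 were 3.74 ± 0.25 (SE; adjusted p = 2.35e-09) after and 6.75 ± 0.31 (SE; adjusted p = 6.80e-11) before. CXCL14, a chemokine gene 69305 bases from LINC01959, was higher in knockout cells before differentiation by 2.14 ± 0.57 (SE; adjusted p = 0.0148) and was -0.06 ± 0.41 (SE; adjusted p = 0.939) after it.

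FOXD4, a forkhead gene 2477 bases from LINC01388, was higher in knockout cells by 1.19 ± 0.24 (SE; adjusted p = 0.00101) after and 1.03 ± 0.27 (SE; adjusted p = 0.0132) before. FOXD4 has near-identical copies elsewhere in the genome, so its counts are uncertain. IFT57, a cilium transport gene 22202 bases from LINC01215 on the opposite strand, was lower in knockout cells after differentiation, with a log2 fold change of -1.22 ± 0.15 (SE; adjusted p = 7.20e-06). It was also lower after than before in control cells, with -1.29 ± 0.12 (SE; adjusted p = 1.02e-07). FER, a tyrosine kinase gene 19562 bases from LINC01023, was lower in knockout cells after, with a log2 fold change of -1.25 ± 0.10 (SE; adjusted p = 1.66e-08), where LINC01023 was at -0.90 ± 0.25 (SE; adjusted p = 0.0117). The pairs described here are only some of those of the named genes. Over all pairs with a tested neighbour after differentiation, 4 of 11 LINC genes higher in knockout cells had a higher neighbour. Of 8 that were lower, 3 had a lower neighbour. In other described pairs the calls differed. TEAD1, a transcription factor gene 18027 bases from LINC00958, was lower in knockout cells after, with a log2 fold change of -0.53 ± 0.08 (SE; adjusted p = 2.94e-05), while LINC00958 was higher. ZFP14, 2735 bases from LINC00665, was at -0.18 ± 0.18 (SE; adjusted p = 0.515) and was not called.

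For comparison, a list of 70 long noncoding RNA genes with names outside the LINC series was used, of which 67 were found by symbol. The list gave 50 tested entries by gene identifier, with LINC-PINT entered under both of its identifiers. TINCR, also listed, is typed protein-coding. With differentiation 22 of the 50 entries were higher and 9 lower in knockout cells, and 20 higher and 10 lower in control cells. Their medians were 0.24 and 0.15 on the log2 scale. Over all genes tested, 26.2% were higher and 25.4% lower in knockout cells, and 19.5% and 20.7% in control cells. For knockout, 10 of the 50 entries were higher and 7 lower after differentiation, and 9 higher and 5 lower before. Among all genes tested the higher and lower shares were 15.5% and 14.5% after, and 8.06% and 7.39% before. The list was not matched to the LINC genes for counts, and power grows with counts. NEAT1 had 69682 counts over the 12 libraries and PSMB8-AS1 had 90, whereas the median LINC gene had 205. NEAT1, which builds nuclear paraspeckles, averaged 1025 ± 22.9 CPM in knockout cells after, 608 ± 31.7 CPM in control cells after, 391 ± 40.8 CPM in knockout cells before and 263 ± 17.2 CPM in control cells before (SD, n = 3 each). NEAT1 was highest in knockout cells after differentiation and lowest in control cells before it, and was called higher in all 4 comparisons of genotype and stage. BGLT3, a noncoding RNA gene of the beta-globin locus, was higher in knockout cells by 4.06 ± 0.20 (SE; adjusted p = 5.66e-11) after and 3.23 ± 0.25 (SE; adjusted p = 5.18e-08) before.

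Across the 5 comparisons, 86 of the 149 LINC genes were called at least once and 63 in none. A comparison of stage called 80 and a comparison of genotype 37, of which 6 were called for genotype and for no stage. The same tallies were not made over all genes tested, so they have no background here. Of all genes tested, 51.6% were called for stage in knockout cells and 40.2% in control cells. For genotype, 30% of them were called after differentiation and 15.5% before. Without TMM scaling the median of all genes was -0.17, in place of -0.0039, for knockout after differentiation. The 18 higher and 14 lower LINC genes then became 16 and 23, and 27.8% of all called genes were higher in place of 51.5%. For stage in knockout cells that scaling gave 39 higher and 20 lower LINC genes, with 35.5% of all called genes higher in place of 50.8%. For the interaction it gave 3 and 8, with 22.8% in place of 49.6%.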

How the data were processed

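Gene counts of 12 libraries were analysed as the authors deposited them. The deposited counts are whole reads per gene, not normalized, made with featureCounts 1.4.6-p4 per the file headers, on GENCODE 22 genes of hg38, with paired reads and no strand option. The submitters' processing notes list Trimmomatic, FastQC, Subread 1.6.2, featureCounts 1.2.6 and edgeR 3.18.1. Per the labels' protocols, libraries were ribosomal RNA and globin depleted with a stranded kit. No count column lacked a sample.

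Genes with at least 60 counts over the 12 libraries (18897) entered 1 model in edgeR 4.0.16 (R 4.3.3): TMM scaling, 1 mean per group over all 12 libraries, quasi-likelihood tests, Benjamini-Hochberg adjustment over 18897 genes and a threshold of 0.05. SE is the log2 fold change divided by the square root of F. The fit was tested on simulated data in which only genes with at least 1000 counts were changed. Recovery of changes was thus not tested at the depth of the 128 LINC genes with under 1000 counts. Levels are CPM after TMM scaling. Symbols and gene types came from GENCODE 29 by gene identifier, positions from the count table and promoters from RefSeq GRCh38.p14. Library totals of 7667997 to 14047498 set the precision, and intervals cover counting error only.

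The LINC genes, marker lists and the list of other noncoding RNAs were chosen with earlier results of these data known. Named genes were, per comparison and direction, up to 8 called genes with the largest fold change, an average log2 CPM no lower than 0 and groups that did not overlap. The rule added up to 6 genes for the interaction, the 12 highest per kilobase, the genes at the 60-count edge, their nearest protein-coding genes within 100 kb and up to 4 other noncoding RNAs per comparison. Only some of these neighbours were described. LINC00963 and CHD2 were named after their values were seen. Alternatives were other scalings and filters, DESeq2 1.42.0, fits of the compared groups alone, a replicate block, leaving out each library, and other member sets. No 2 libraries of the same group agreed within sampling noise, and libraries of different groups were not compared in this way.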

Additional observations from a re-analysis of the deposited data

Results flagged for a closer look

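In 7 LINC genes the knockout difference after differentiation differed from the knockout difference before it, by the interaction contrast of edgeR's quasi-likelihood test over 18897 genes. The interaction is the log2 fold change of knockout over control after differentiation minus that before. It was -2.31 for LINC01959 (adjusted p = 0.000115), -1.48 for LINC01344 (adjusted p = 0.00245), -1.20 for LINC01215 (adjusted p = 0.00159) and -1.08 for LINC01366 (adjusted p = 0.00572). It was 1.44 for LINC00339 (adjusted p = 0.00498), 0.71 for LINC02506 (adjusted p = 0.00532) and 0.50 for LINC01578 (adjusted p = 0.00476). LINC01344 was higher in knockout cells at both stages, and its difference was smaller after differentiation. LINC01959 was higher in knockout cells before differentiation and was not called after it.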

How the results depend on the processing

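Of 208 recomputed counts of called LINC genes, 195 stayed within 1.5 times the reported count. Restricting to the 97 of 149 LINC genes that share no exon base with another gene, a smaller set by construction, gave 7 higher and 3 lower for knockout before differentiation, 11 higher for knockout after, 30 higher with stage in knockout cells and 26 in control cells. DESeq2 gave 2 lower for knockout before and 7 lower with stage in control cells. Scaling by library sizes only gave 23 lower for knockout after and 8 lower in the interaction. Leaving out 1 library at a time gave, higher and lower, 15 to 19 and 7 to 15 for knockout after, 8 to 12 and 2 to 6 for knockout before, 38 to 53 and 13 to 15 for stage in knockout cells, 30 to 42 and 9 to 12 for stage in control cells, and 3 to 6 and 4 to 5 for the interaction. Same-numbered libraries deviated together weakly, with correlations of -0.0109 to 0.194 that were mostly above 0. Differently numbered libraries had correlations of -0.192 to 0.143. The main fit did not take the numbers as pairs, and whether replicates share an effect was not tested. The fit with a replicate block gave 18 higher and 15 lower for knockout after and 12 higher and 5 lower for knockout before. It gave 55 and 14 with stage in knockout cells, 43 and 11 in control cells, and 4 and 4 in the interaction. Over all genes tested, the block gave 1843 higher and 1634 lower for knockout before, in place of 1523 and 1397. For knockout after it gave 3174 and 2961, in place of 2920 and 2749. Choosing LINC genes by newer symbols, an alternative chosen after seeing the data, gave 165 genes, with 21 higher and 17 lower for knockout after. Of 67 results for single named LINC genes, 14 lost their call in at least 1 alternative and 0 reversed, and the cause was not tested. Depth limits most of these genes: 91 of 149 had under 300 counts over 12 libraries.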

Other observations

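A few LINC genes with low counts changed beyond counting error in a way the report did not describe. LINC01225 had 30 counts over the 3 knockout libraries before differentiation, against 2 counts over the 3 control libraries before, a ratio of 14.9 at equal depth (95% exact interval 3.79 to 128.9). LINC01637 had 1 count over the 3 knockout libraries after differentiation, against 17 counts over the 3 control libraries after, a ratio of 0.0803 (95% exact interval 0.00192 to 0.512). LINC02029 had 39 counts over the 3 control libraries after differentiation, against 3 counts over the 3 control libraries before, a ratio of 13.7 (95% exact interval 4.35 to 69.3). LINC02029 shares 72.0% of its exon bases with LINC00880 on the opposite strand, and the counts are unstranded, so reads of these genes cannot be told apart. These intervals cover counting error only, and the genes were chosen after their values were seen.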
